A study of Sus scrofa with 18 samples.

Results

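The transcript levels of LLC-PK1 cells after 8 h of all-trans retinoic acid (ATRA) were compared with those of cells at 0 h. The comparison used the 3 arrays titled T8 and the 3 titled T0, 6 of the 18 arrays in the series, and all 27558 probe sets. LLC-PK1 is an epithelial line derived from the kidney of a male Hampshire pig, and the cells were grown past confluence before ATRA was added. Every later array came from cells exposed to ATRA, for 0.5, 1, 4, 8 or 12 h, and each of the 6 times was sampled with 3 arrays labelled as biological replicates. The 0 h arrays were therefore the only controls, and 8 h of exposure cannot be told apart from 8 h of further culture. The labels give no dose and no vehicle. Because 1 cell line was used, the replicates sample its cultures and not different animals. Each value is a log2 signal from an Affymetrix array, so a difference of 1 is a 2-fold change.

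Retinoic acid is the active form of vitamin A. It binds nuclear receptors of the RAR family, which sit on DNA as partners of RXR receptors and recruit coactivators when the ligand is bound. Among the genes switched on directly in many cell types are those that limit the ligand itself: CYP26 enzymes oxidize retinoic acid, and DHRS3 returns retinaldehyde, its precursor, to retinol. Proximal tubule cells, from which LLC-PK1 keeps several features, take back glucose, phosphate, amino acids and filtered protein from the urine. A dense epithelial culture divides little, so genes of DNA replication and ribosome production usually run lower in it than in a dividing one. No dividing culture was measured for comparison here. At 0 h, 29 of 29 measured genes of ribosome biogenesis and 20 of 27 of G1/S and DNA replication lay above the array median. So did 7207 of all 12361 genes.

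Array 1 stood apart before any comparison was made. At 8 h, array 1 correlated with arrays 2 and 3 at 0.9824 and 0.9817 across probe sets, against 0.9938 between arrays 2 and 3. At 0 h the same pairs gave 0.9905, 0.9906 and 0.9943, and pairs of a 0 h and an 8 h array gave 0.9801 to 0.9903. Array 1 was also high in genes of mitosis at both times. The median of 38 such genes, relative to their mean at 0 h, was 0.73, -0.30 and -0.42 on the 0 h arrays and 0.89, 0.16 and -0.22 at 8 h. Counts below are therefore also given from a fit of the arrays numbered 2 or 3 at every time, an alternative chosen after the data were seen.

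At 8 h, 1681 probe sets, 6.10% of those tested, differed from 0 h at an adjusted p under 0.05 (limma, Benjamini-Hochberg over all probe sets). Of these, 891 were higher (3.23%) and 790 lower (2.87%). Among 12361 genes 977 were called (7.90%), 535 higher (4.33%) and 442 lower (3.58%), each gene read through its brightest probe set. Most changes were small. The median size of a called difference was 0.58 on the log2 scale, or 1.5-fold, and 72 of the higher genes and 27 of the lower ones changed at least 2-fold. Leaving out 0 h array 2 lowered the counts of probe sets to 371 higher and 332 lower. Leaving out 0 h array 3 gave 553 and 456, and leaving out 8 h array 3 gave 504 and 388. Without 0 h array 1 the lower count was 508. The arrays numbered 2 or 3 alone called 1077 higher and 1034 lower, and a fit of the 6 compared arrays alone called 131 and 98.

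**Figure D1:**
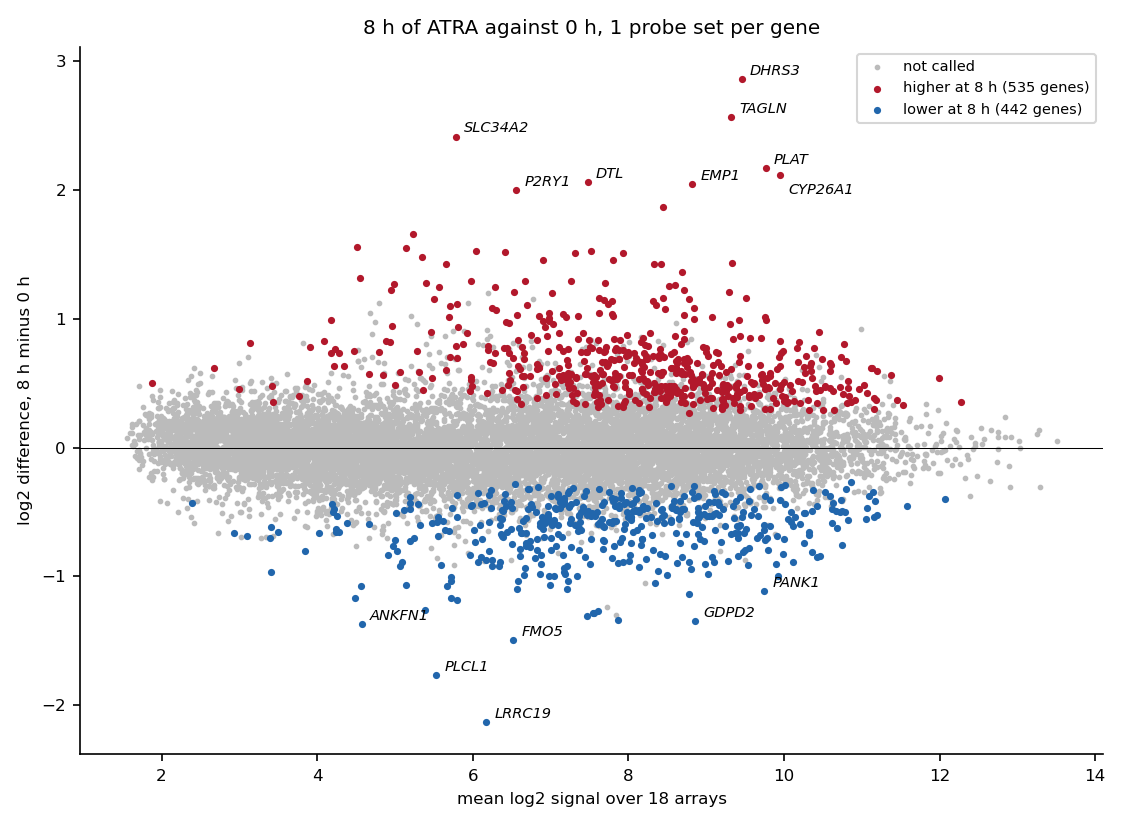
Each point is 1 of 12361 genes, with its mean log2 signal over the 18 arrays on the x axis and its log2 difference, 8 h minus 0 h, on the y axis; red marks the 535 called higher, blue the 442 called lower and grey the rest. DHRS3 at 2.86 is the highest point and LRRC19 at -2.13 the lowest.

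The strongest rises included both genes that dispose of retinoids. DHRS3, the reductase that turns retinaldehyde back to retinol, read 7.82, 7.91 and 7.87 on the 0 h arrays and 10.56, 10.83 and 10.78 at 8 h. All 8 h arrays lay far above all 0 h arrays, and the groups did not come near each other. The rise was 2.86 ± 0.14 (SE, n = 3 arrays per time), or 7.25-fold (limma, adjusted p = 5.02e-08). CYP26A1, the hydroxylase that clears retinoic acid, read 8.42, 8.42 and 8.84 at 0 h and 10.46, 10.65 and 10.88 at 8 h, again without overlap. It rose by 2.11 ± 0.16, or 4.32-fold (limma, adjusted p = 5.31e-06). DHRS3 was still climbing between 4 and 8 h, by 0.65 ± 0.14 (limma, adjusted p = 0.0199), whereas the difference for CYP26A1 over the same interval was 0.32 ± 0.16 (limma, adjusted p = 0.331).

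Of 21 measured genes of retinoid metabolism and transport, 2 rose and 1 fell, against 4.33% and 3.58% of all genes. Their median difference was 0.00, against -0.01 over all genes. The one that fell was STRA6, the membrane receptor that takes up retinol from its plasma carrier. It read 8.01, 8.07 and 8.19 at 0 h and 7.85, 7.59 and 7.67 at 8 h, a difference of -0.39 ± 0.10 (limma, adjusted p = 0.031). The retinol dehydrogenases RDH10 and RDH11 differed by -0.09 ± 0.16 and -0.11 ± 0.17, the binding protein CRABP2 by -0.12 ± 0.19, and the transglutaminase TGM2, a retinoid target in other cells, by 0.05 ± 0.10. None of those 4 was called, and their groups overlapped.

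Among 14 receptors and coregulators, 2 rose, against 4.33% of all genes. RARA, the alpha form of the retinoic acid receptor, read 7.64, 7.67 and 7.75 at 0 h and 8.05, 7.91 and 8.07 at 8 h, a rise of 0.33 ± 0.09 (limma, adjusted p = 0.0426). NCOA3, a coactivator of nuclear receptors, rose by 0.71 ± 0.16 from 8.96, 8.68 and 8.66 to 9.56, 9.55 and 9.33 (limma, adjusted p = 0.0161). RARB, the beta form and a retinoid target in many cells, was not called at -0.34 ± 0.18 (limma, adjusted p = 0.353), although its 8 h values of 6.32, 6.13 and 6.28 lay below its 0 h values of 6.35, 6.64 and 6.76. RXRA, the alpha form of the partner receptor, differed by -0.26 ± 0.17. The calls of RARA and STRA6 were each lost in 5 of the 6 fits that left out 1 array, at adjusted p of up to 0.137 and 0.125 (limma). RARA kept its call only without 8 h array 2, and STRA6 only without 8 h array 1. NCOA3 lost its call without 0 h array 2, 0 h array 3 or 8 h array 2, at up to 0.0771.

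**Figure D2:**
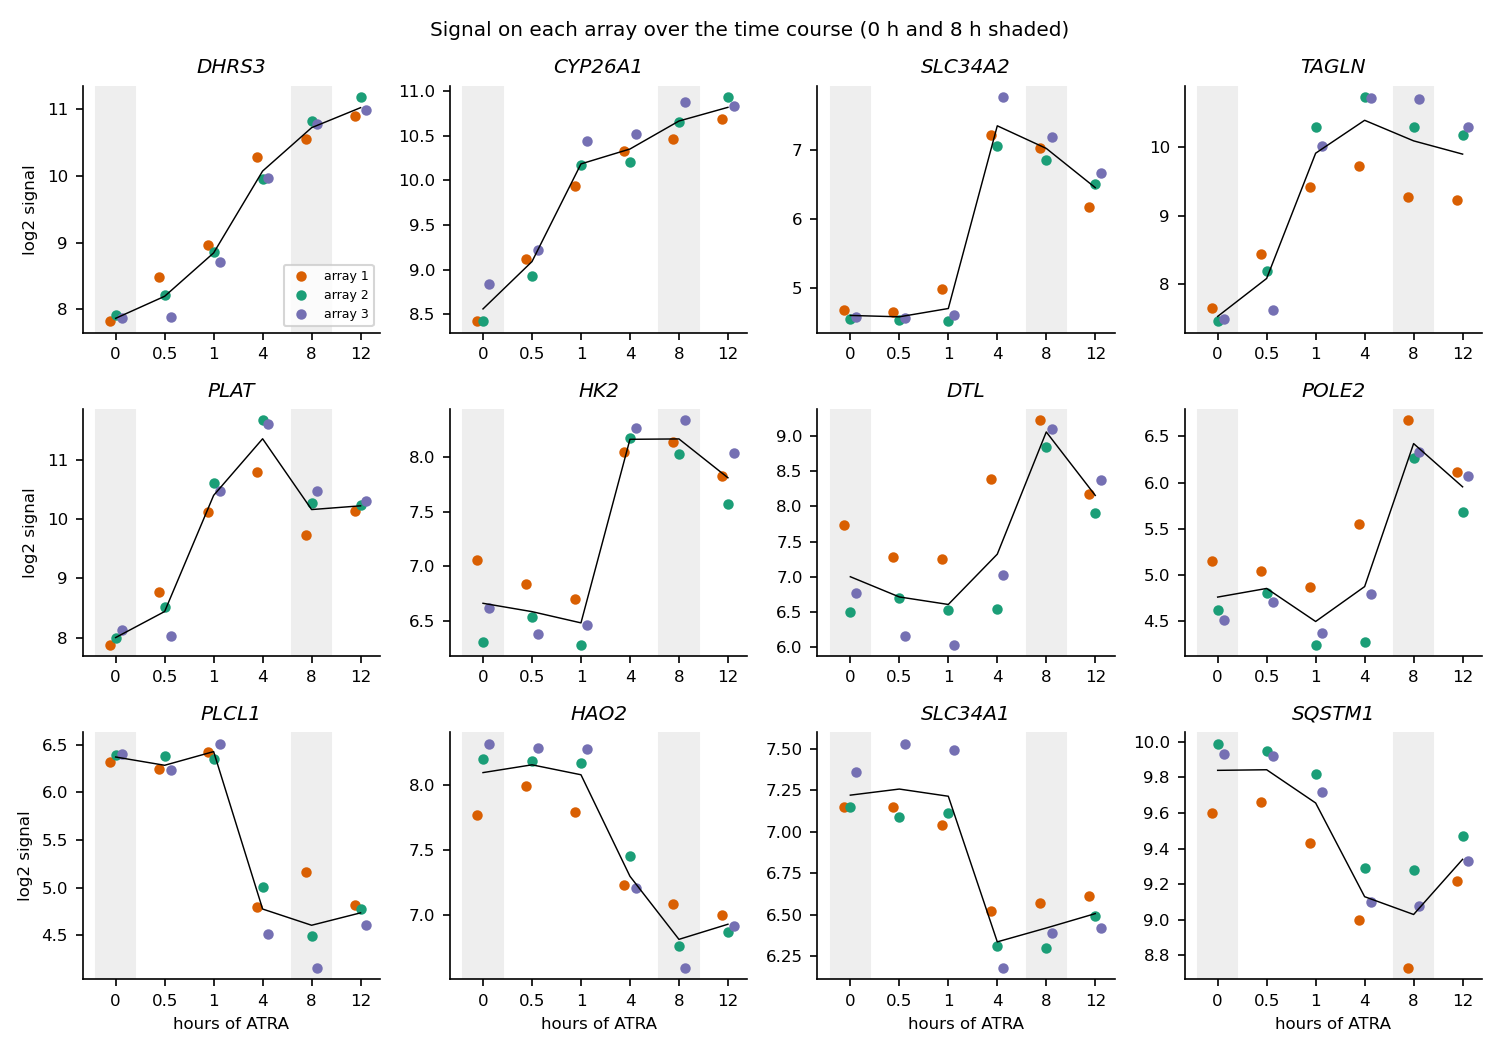
Log2 signal of 12 genes on each of the 18 arrays by hours of ATRA; colours mark the array number, the line joins the means of the 3 arrays, and 0 h and 8 h are shaded. DHRS3 and CYP26A1 are far above 0 h at 8 h, DTL and POLE2 are highest at 8 h, and PLCL1, HAO2 and SLC34A1 lie below their 0 h values.

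Of 29 genes known to be induced by retinoic acid in other cell types, 7 rose and 1 fell, including the 3 retinoid genes above. Over all genes these shares were 4.33% and 3.58%. ELF3, an epithelial transcription factor, rose by 1.37 (limma, adjusted p = 0.00135) and BHLHE40, a repressor in the circadian system, by 1.21 (limma, adjusted p = 0.001). PRDM1, a zinc finger repressor of cell fate, rose by 0.93 (limma, adjusted p = 0.0037). HOX genes set position along the body axis. Of 28 such genes 3 rose and 1 fell, against 4.33% and 3.58% of all genes, with a median of -0.01. HOXD1 rose by 0.96, HOXB2 by 0.61 and HOXB3 by 0.55 (lost without any one 0 h array or 8 h array 3, at up to 0.11), and HOXA5 differed by -0.53 ± 0.12 (limma, adjusted p = 0.015, lost without 0 h array 2 or 0 h array 3 at up to 0.0724). HOXA5 was higher at 8 h than at 4 h by 0.55 (limma, adjusted p = 0.0202).

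Genes of the G1/S transition and DNA replication formed the group that was most often called at 8 h among the 40 lists apart from ribosome production and translation. Of 27 measured, 13 rose and none fell, against 4.33% of all genes rising. Their median difference was 0.77, all 27 differences were above 0, and in 22 the 8 h arrays lay wholly above the 0 h arrays, which was so for 13.4% of all genes. The members spanned the steps of starting replication: ORC1 and CDC6 mark origins and load the helicase, MCM2 and MCM4 are parts of that helicase, POLE2 and POLA2 belong to the polymerases, and DTL directs destruction of licensing factors during S phase.

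DTL read 7.73, 6.51 and 6.77 at 0 h and 9.22, 8.85 and 9.10 at 8 h. Its lowest 8 h array lay well above its highest 0 h array, which was array 1. DTL rose by 2.06 ± 0.43, or 4.16-fold (limma, adjusted p = 0.0105). POLE2, a subunit of the leading strand polymerase, went from 5.15, 4.62 and 4.52 to 6.67, 6.26 and 6.33, a rise of 1.66 ± 0.27 (limma, adjusted p = 0.002). CDC6 went from 5.39, 4.55 and 4.93 to 6.69, 6.27 and 6.36, a rise of 1.48 ± 0.25 (limma, adjusted p = 0.00261). For both genes the time points did not overlap and array 1 was the highest at each of them.

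MCM4 read 8.48, 7.84 and 8.37 at 0 h and 9.20, 9.49 and 9.67 at 8 h, a rise of 1.22 ± 0.16 (limma, adjusted p = 0.000725). Here array 1 was the lowest at 8 h, and the groups again did not overlap. CCNE2, a cyclin that drives entry into S phase, rose by 1.52 ± 0.36 (limma, adjusted p = 0.0182) and ORC1 by 1.29 ± 0.32 (limma, adjusted p = 0.0266). MCM2 rose by 1.00 ± 0.24 (limma, adjusted p = 0.0221). Outside the list, DSCC1, which helps load the sliding clamp and join sister chromatids, went from 3.96, 4.17 and 4.42 to 5.89, 5.54 and 5.77, a rise of 1.55 ± 0.21 (limma, adjusted p = 0.000819). CDCA7, a chromatin factor of cycling cells, rose by 1.55 ± 0.23 as well, and RBL1, a member of the retinoblastoma family, by 0.78 ± 0.10.

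Single arrays weighed on the number of replication genes called. It was 4 without 0 h array 2, 6 without 0 h array 3, and 7 without 8 h array 2 or 8 h array 3, while the arrays numbered 2 or 3 alone called 18. DTL lost its call without 0 h array 2 (limma, adjusted p = 0.0632). CCNE2 lost it without 0 h array 2, 0 h array 3 or 8 h array 1 (up to 0.103), and ORC1 without array 2 or 3 of either time (up to 0.142). POLE2, CDC6, DSCC1, CDCA7 and RBL1 kept theirs in all 6 fits.

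**Figure D3:**
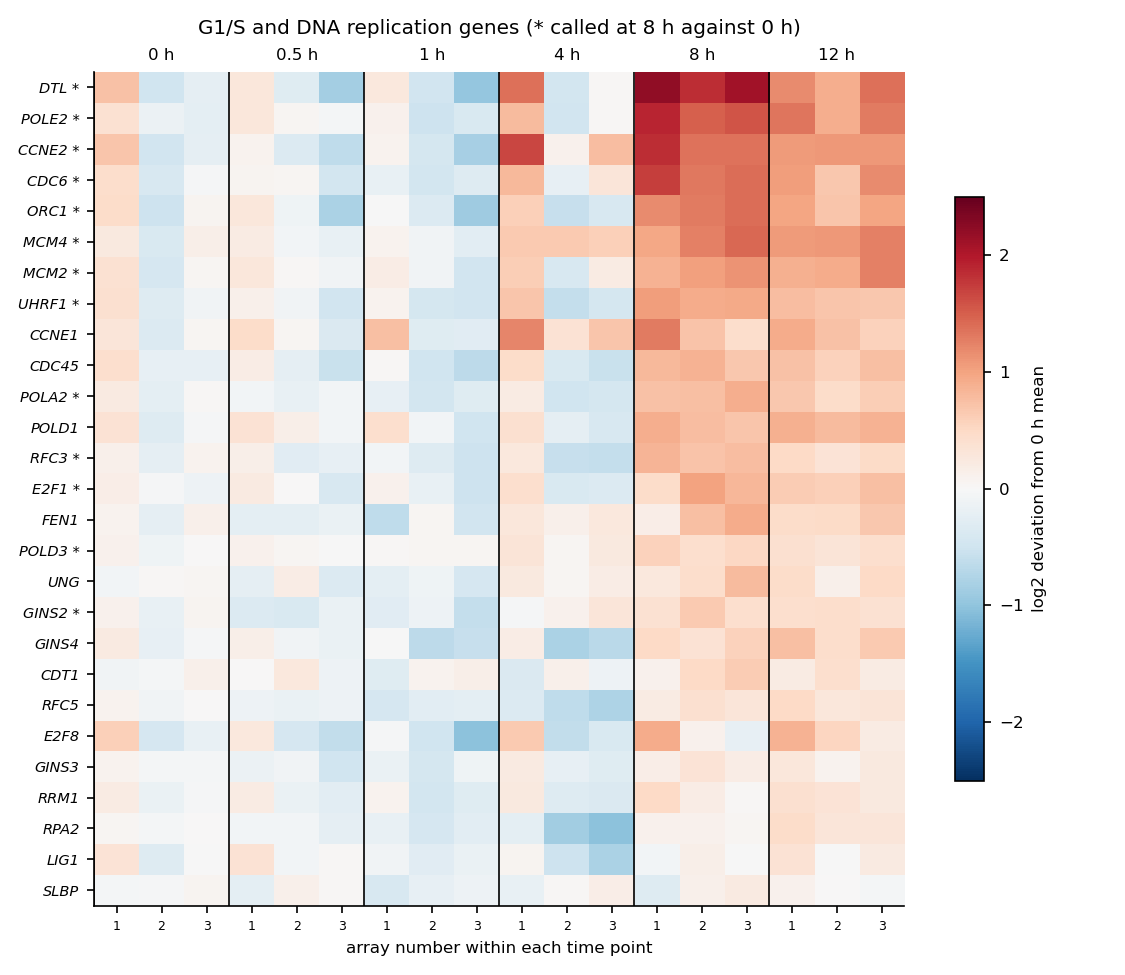
Log2 deviation of 27 G1/S and DNA replication genes from their mean at 0 h on each of the 18 arrays, in order of their difference at 8 h; an asterisk marks the 13 called higher at 8 h than at 0 h. The 8 h columns are red for most genes on all 3 arrays, and the 4 h columns are so mainly on array 1.

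Few genes of mitosis were called. Of 38 genes of G2 and M phase, 1 was called, against 7.90% of all genes, and the median was 0.27. It was BUB3 of the spindle checkpoint, at 0.48 ± 0.11 (limma, adjusted p = 0.0171). BUB3 lost its call without 0 h array 1 or 2 or 8 h array 2 or 3, at up to 0.0847. CDK1, the kinase that triggers mitosis, read 8.48, 7.47 and 7.32 at 0 h and 8.48, 8.01 and 7.55 at 8 h, so the same array was the highest at both times and the groups overlapped. TOP2A, which untangles replicated chromosomes, ran from 8.92, 7.71 and 7.61 to 9.39, 8.29 and 7.77. The spread between arrays of 1 time point, set by array 1, was larger here than the difference between times. In the replication list the same arrays gave medians of 0.23, -0.22 and 0.00 at 0 h and of 0.72, 0.72 and 0.70 at 8 h, close together at 8 h and spread at 0 h. The part of the mitotic level of array 1 in the replication result was not tested beyond the fit without the arrays numbered 1.

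Replication genes were also higher than at 4 h. Between 4 and 8 h limma called 911 probe sets (3.31%), 500 higher at 8 h (1.81%) and 411 lower (1.49%). Among genes it called 510 (4.13%), 287 higher (2.32%) and 223 lower (1.80%). In the replication list 11 of 27 were higher and none lower, with a median of 0.80. POLE2 exceeded its 4 h level by 1.54 ± 0.27 (limma, adjusted p = 0.00644), ORC1 by 1.42 ± 0.32 (limma, adjusted p = 0.0259) and CDC6 by 1.18 ± 0.25 (limma, adjusted p = 0.0165). DTL did so by 1.74 ± 0.43 (limma, adjusted p = 0.0395). MMS22L, which repairs stalled forks, showed the largest such step of the named genes at 1.84 ± 0.34 (limma, adjusted p = 0.00847), but it was not called against 0 h at 1.15 ± 0.34 (limma, adjusted p = 0.0569). MTBP, a factor of origin firing, was higher than at 4 h by 1.51 and than at 0 h by 1.25, where its call held only without 0 h array 1 (up to 0.149 otherwise).

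The counts against 4 h moved with single arrays. Without 4 h array 1 they rose to 1365 higher and 878 lower, and with the arrays numbered 2 or 3 alone they were 1032 and 809. They dropped to 76 and 124 without 4 h array 2, and 125 and 128 without 4 h array 3. Leaving out 8 h array 1 gave 203 higher, and leaving out 8 h array 2 gave 217 higher and 166 lower. A fit of the 6 arrays of these 2 times alone called 0 in either direction, whereas in the 18-array fit 4542 had an unadjusted p under 0.05.

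**Figure D4:**
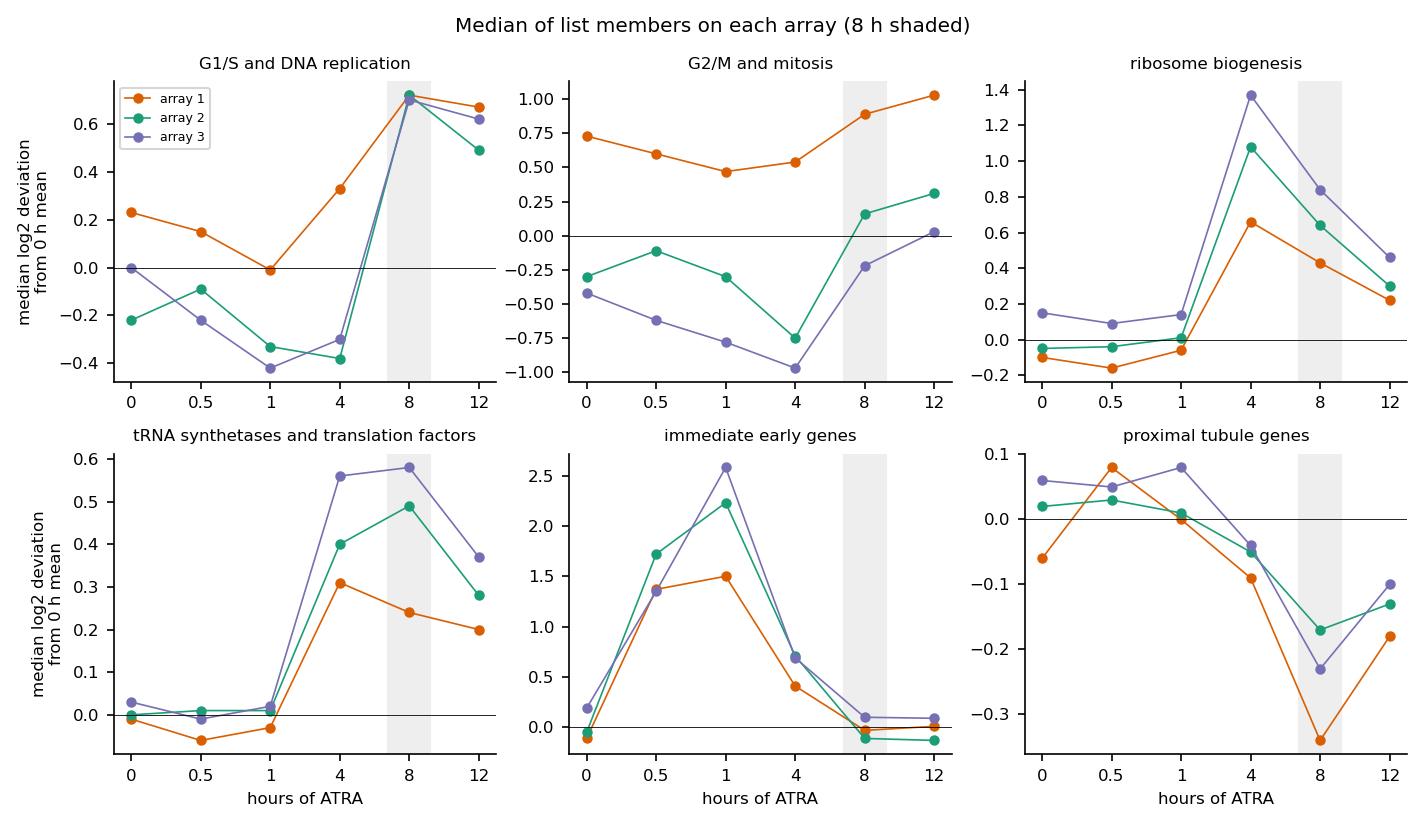
Median over list members of the log2 deviation from the 0 h mean, on each array, by hours of ATRA, for 6 gene lists; colours mark the array number and 8 h is shaded. The replication panel shows all 3 arrays near 0.7 at 8 h, the mitosis panel shows array 1 above the others throughout, and the immediate early panel is back near 0.

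Transcripts of genes for ribosome production were still raised at 8 h. Of 29 genes of ribosome biogenesis, 15 rose and none fell, against 4.33% and 3.58% of all genes, with a median of 0.66. In 24 of the 29 the 8 h arrays lay wholly above the 0 h arrays, against 13.4% of all genes. DKC1, which modifies ribosomal RNA, went from 7.74, 7.65 and 8.06 to 9.06, 9.10 and 9.54, a rise of 1.42 ± 0.20 (limma, adjusted p = 0.0011). GNL3, a nucleolar GTPase, went from 8.16, 8.25 and 8.32 to 9.27, 9.13 and 9.41, a rise of 1.03 ± 0.11 (limma, adjusted p = 0.000156). In both genes the 3 arrays of each time were close together and the times did not overlap. NOP56, a core protein of the particles that guide methylation of ribosomal RNA, rose by 0.77 ± 0.17 (limma, adjusted p = 0.0149).

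Some of these genes were already below their 4 h level. Against 4 h, 8 of the 29 were lower and none higher, where 1.80% and 2.32% of all genes were. The median of the 29 was -0.30. NOP56 was among the 8, at -0.68 ± 0.17 (limma, adjusted p = 0.0438). The number of biogenesis genes called against 0 h was 9 without 0 h array 1, 0 h array 2 or 8 h array 3. The median of the list on the 8 h arrays was 0.43, 0.64 and 0.84, lowest on array 1.

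Of 30 enzymes that charge tRNAs and factors of translation, 17 rose and none fell, against 4.33% and 3.58% of all genes, with a median of 0.49. NARS, which charges the asparagine tRNA, went from 10.89, 10.86 and 10.98 to 11.48, 11.49 and 11.60, a rise of 0.61 ± 0.10 (limma, adjusted p = 0.00199). EPRS, which charges those of glutamate and proline, rose by 0.54 ± 0.10 (limma, adjusted p = 0.00362). Against 4 h, 1 of the 30 was lower, EEF1E1 at -0.63, and none was higher, where 1.80% and 2.32% of all genes were. The count against 0 h was 10 without 0 h array 1 or 8 h array 2, 11 without 0 h array 3, and 9 without 0 h array 2 or 8 h array 3.

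Ribosomal proteins gave few calls. Of 38 proteins of the cytosolic ribosome none was called, against 7.90% of all genes, and the median was -0.01. Of 52 mitochondrial ones 2 rose and none fell, near the 4.33% and 3.58% of all genes. The 2 were MRPS5, higher by 0.50, and MRPS30, higher by 0.41. The median of the 52 was 0.11, and 38 of their differences were above 0, as were 6059 of those of all 12361 genes. MRPS5 kept its call only without 0 h array 1 or 8 h array 2, and MRPS30 only without 8 h array 1, with adjusted p of up to 0.105 and 0.11. None of 25 genes of oxidative phosphorylation was called. Of 24 chaperones 5 rose and none fell, against 4.33% and 3.58% of all genes: HSPD1 of mitochondria rose by 0.60, HSPH1 by 0.64 and TCP1, part of the cytosolic folding chamber, by 0.52. HSPH1 lost its call without array 1 of either time, 0 h array 2 or 8 h array 3 (up to 0.12), and TCP1 without array 2 of either time or 8 h array 3 (up to 0.0627).

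**Figure D5:**
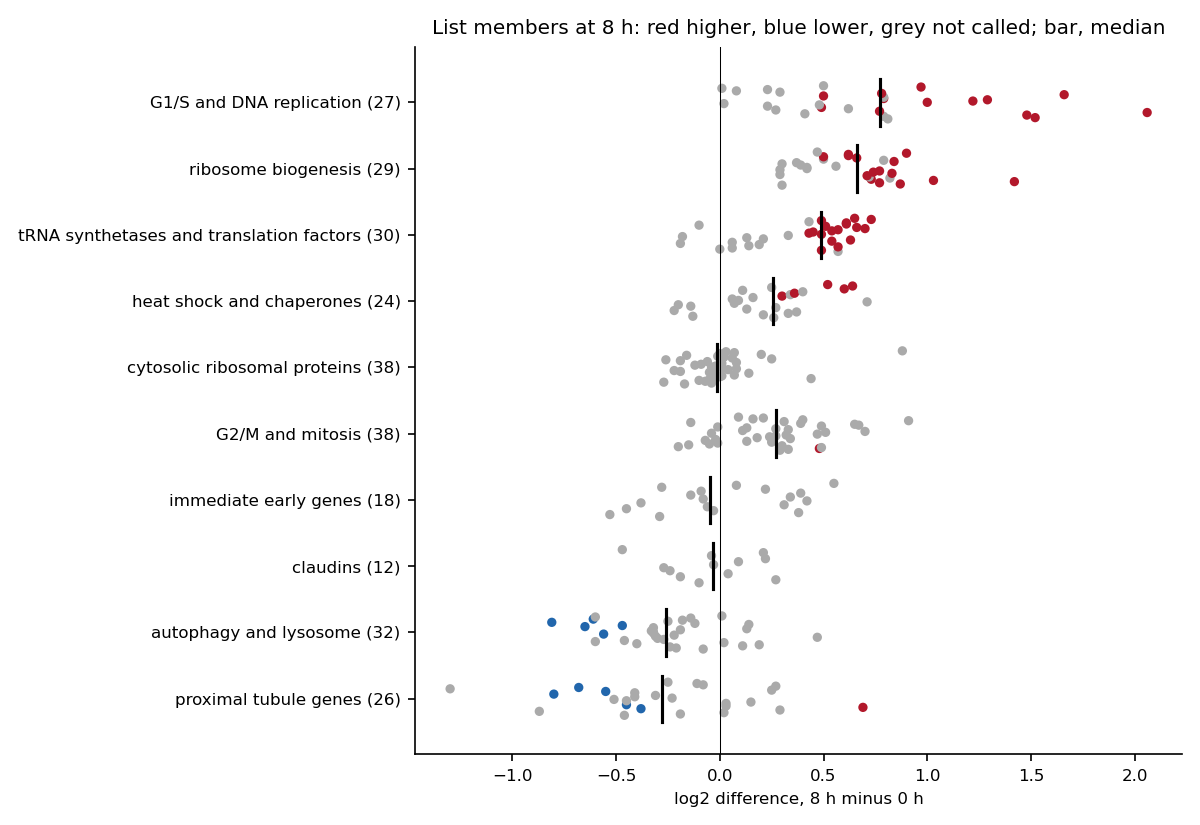
Log2 difference, 8 h minus 0 h, of each measured member of 10 gene lists, with the number measured in parentheses; red points were called higher, blue ones lower, grey ones not called, and the black bar is the list's median. The first 3 lists lie mostly above 0, with medians of 0.77, 0.66 and 0.49, and the last 2 mostly below it, at -0.26 and -0.28.

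Of 32 genes of the unfolded protein and integrated stress responses, 5 rose and 2 fell, against 4.33% and 3.58% of all genes. ASNS, which makes asparagine, went from 7.90, 7.92 and 7.76 to 8.56, 9.12 and 9.21, a rise of 1.10 ± 0.18 (limma, adjusted p = 0.00226). DDIT4, an inhibitor of the growth kinase mTORC1, rose by 0.85 (limma, adjusted p = 0.00264). DDIT3, a factor of prolonged stress, read 7.26, 7.21 and 6.82 at 0 h and 6.82, 6.52 and 6.05 at 8 h. The groups met at 6.82, and its difference of -0.63 ± 0.18 passed narrowly (limma, adjusted p = 0.0496, lost without 0 h array 1 or 2 or 8 h array 2 or 3 at up to 0.2).

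Of 20 transporters of amino acids and nucleosides, 4 rose and 1 fell, against 4.33% and 3.58% of all genes, with a median of 0.08. SLC7A2, a carrier of basic amino acids, rose by 1.31 (limma, adjusted p = 0.00362) and SLC29A1, a nucleoside carrier, by 1.29 (limma, adjusted p = 0.00175). SLC1A4, a carrier of neutral amino acids, rose by 1.04 ± 0.14 from 7.32, 7.15 and 7.32 to 8.23, 8.23 and 8.45, with a wide gap between the times (limma, adjusted p = 0.000891). Its level was nonetheless 0.62 below that at 4 h (limma, adjusted p = 0.0275).

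In sugar metabolism 4 of 30 genes of glycolysis and hypoxia rose and 1 fell, against 4.33% and 3.58% of all genes. HK2, the inducible hexokinase, went from 7.06, 6.30 and 6.62 to 8.14, 8.03 and 8.34, a rise of 1.51 ± 0.18 without overlap (limma, adjusted p = 0.00036). PDK1, which holds pyruvate back from mitochondria, rose by 1.02 (limma, adjusted p = 0.00838), and the related PDK3 fell by 0.71 (limma, adjusted p = 0.0167, lost without 0 h array 1 or 2 or 8 h array 3 at up to 0.0865). Of 23 genes of fatty acid oxidation 2 rose and 1 fell, against 4.33% and 3.58% of all genes, with a median of 0.00. The ligases ACSL4 and ACSL5 rose by 0.96 and 0.90, and the receptor PPARA fell by 0.55. Of 19 genes of cholesterol and fatty acid synthesis 1 rose, ACACA, which commits carbon to fatty acids, by 0.64, and the median was 0.30.

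None of 18 immediate early genes was called, with a median of -0.05, whereas the same genes had medians of 1.53 at 0.5 h and 2.09 at 1 h. FOS, a subunit of the AP-1 factor, read 5.23, 5.44 and 5.68 at 0 h and 5.75, 5.51 and 6.02 at 8 h, and EGR1, a zinc finger factor of the same response, differed by -0.03 ± 0.19. Both pairs of groups overlapped. In the ERK output list 2 of 21 rose, against 4.33% of all genes, SPRY1 by 0.89 and SPRED1 by 0.55, both brakes on the pathway. Both calls were lost without array 1 of either time, 0 h array 2 or 8 h array 3, at up to 0.122 and 0.147. In the NF-kappaB list 2 of 22 rose, against 4.33% of all genes. They were CXCL2 and CCL2, chemokines for neutrophils and monocytes, each higher by 0.74. The 4 probe sets of CXCL2 all rose, by 1.67-fold to 3.39-fold, and 2 of them held the same values.

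Several signalling genes were lower at 8 h than at 4 h. The receptor chain IL4R was 1.72 ± 0.21 below its 4 h level (limma, adjusted p = 0.00121), PLAU, the urokinase, 1.64 ± 0.34 below it (limma, adjusted p = 0.0165), and DUSP5 and DUSP10, phosphatases that switch off MAP kinases, 1.55 and 1.62 below it. None of the 4 was called against 0 h. Their remaining differences from 0 h were 0.55 ± 0.21, 0.52 ± 0.34, -0.10 ± 0.24 and 0.82 ± 0.34.

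A smaller set stayed far above 0 h. TAGLN, a smooth muscle actin-binding protein, read 7.65, 7.46 and 7.49 at 0 h and 9.28, 10.29 and 10.71 at 8 h, a rise of 2.56 ± 0.38, or 5.91-fold (limma, adjusted p = 0.00133). Array 1 of 8 h was the lowest of its group and still above every 0 h array. PLAT, the tissue plasminogen activator, went from 7.88, 7.99 and 8.13 to 9.74, 10.27 and 10.48, a rise of 2.17 ± 0.24 (limma, adjusted p = 0.000176), although it was 1.19 below its 4 h level (limma, adjusted p = 0.0137). EMP1, an epithelial membrane protein, rose by 2.04 ± 0.29 (limma, adjusted p = 0.00106) from 7.70, 7.38 and 8.11 to 9.51, 9.58 and 10.22. All 4 calls of TAGLN, PLAT, EMP1 and HK2 held in each fit that left out 1 array.

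Further large rises followed. SLC34A2, a sodium phosphate cotransporter of lung and gut, read 4.69, 4.55 and 4.58 at 0 h, below the array medians of 5.589 to 5.648, and 7.02, 6.85 and 7.19 at 8 h. It rose by 2.41 ± 0.17, or 5.32-fold (limma, adjusted p = 5.31e-06). P2RY1, a receptor for ADP, went from 5.79, 5.21 and 5.17 to 7.67, 7.22 and 7.26, a rise of 1.99 ± 0.23 (limma, adjusted p = 0.000237). The gap between the times exceeded the spread within either of them for both genes. GABRP, a subunit of the GABA receptor found in epithelia, rose by 1.86 ± 0.34, and SLC51B, a subunit of the basolateral bile acid exporter, by 1.52 ± 0.23. GBP1, a GTPase induced by interferon, rose by 1.51 ± 0.26. In the interferon list 1 of 18 genes rose, PSMB9, and 1 fell, STAT2, against 4.33% and 3.58% of all genes. PSMB9 kept its call only without 0 h array 1 (up to 0.135 otherwise), and STAT2 lost its own without 0 h array 2 or 8 h array 3 (up to 0.0783). A dimmer probe set of PSMB9 was higher by 0.53 but not called (limma, adjusted p = 0.0916).

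Some genes of the differentiated proximal tubule fell. Of 26 measured, 5 fell and 1 rose, against 3.58% and 4.33% of all genes, with a median of -0.28 and 8 differences above 0. SLC34A1, the kidney's own sodium phosphate cotransporter, read 7.15, 7.15 and 7.36 at 0 h and 6.57, 6.30 and 6.39 at 8 h, a difference of -0.80 ± 0.14, or 1.74-fold lower (limma, adjusted p = 0.00408). It thus fell while SLC34A2 of the same family rose, each without overlap between times. SLC5A2, the high-capacity glucose carrier, went from 10.55 to 10.73 on the 0 h arrays to 9.86 to 10.01 on those of 8 h, a difference of -0.68 ± 0.13 (limma, adjusted p = 0.00473).

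The other members that fell were SLC3A1, part of the cystine carrier, at -0.55 ± 0.12, LRP2, the endocytic receptor megalin, at -0.45 ± 0.10, and GGT1, which cleaves glutathione at the brush border, at -0.38 ± 0.09 (limma, adjusted p = 0.0111, 0.013 and 0.0206). Each of the 3 had all of its 8 h arrays below all of its 0 h arrays. Larger but more variable differences were not called. SLC5A1, the high-affinity glucose carrier, read 7.48, 8.45 and 9.33 at 0 h and 6.83, 7.07 and 7.47 at 8 h, a difference of -1.30 ± 0.51 (limma, adjusted p = 0.174). CUBN, the partner of megalin, differed by -0.87 ± 0.33 (limma, adjusted p = 0.147).

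HNF4A, a nuclear receptor that drives tubule genes, was the member that rose, from 8.16, 8.30 and 8.41 to 8.61, 9.20 and 9.12, by 0.69 ± 0.17 (limma, adjusted p = 0.0265). The 8 h arrays lay above the 0 h arrays, array 1 by the least. Its call was lost in 5 of 6 fits without 1 array, at up to 0.109, and kept only without 8 h array 1. SLC3A1 lost its call without 0 h array 3 or 8 h array 3, at up to 0.0544. LRP2 and GGT1 lost theirs without 0 h array 2 and without 0 h array 3, and at least 1 of them also did without 8 h array 3. SLC34A1 and SLC5A2 kept theirs in all 6 fits. The number of tubule genes lower was 3 without 0 h array 2 or 8 h array 3, and 2 without 0 h array 3.

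The list also served to check the labelled cell type. At 0 h, 17 of the 26 tubule genes measured lay above the array median, as did 7207 of all 12361 genes. That count is therefore a weak check of the cell type. The mean of the list ran from 7.20 to 7.34 on the 0 h arrays and from 6.93 to 7.07 at 8 h. Over all genes it ran from 6.32 to 6.34 and from 6.33 to 6.35. In a culture of 1 line, fewer cells of a differentiated state and less RNA of these genes in every cell cannot be told apart. Of 19 genes of other nephron segments none was called. Epithelial markers averaged 8.29 to 8.35 at 0 h and 8.34 to 8.59 at 8 h. Of 12 such markers 2 rose, KRT19 and ELF3, against 4.33% of all genes. The keratin KRT8 read 11.54 on average at 0 h and the adhesion molecule EPCAM 10.08.

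Markers of other cell types were checked as well. None of 15 fibroblast and mesenchymal markers and none of 14 immune markers was called, and their averages ran from 5.91 to 5.99 and from 5.10 to 5.19 at 0 h, and from 5.96 to 5.97 and from 5.03 to 5.24 at 8 h. The pan-leukocyte marker PTPRC read 2.86 at both times, near the bottom of the scale, while LCP1, an actin bundling protein of leukocytes, read 10.35 and 10.60. Of 10 endothelial markers, averaging 4.96 to 5.07 at 0 h and 4.83 to 5.07 at 8 h, FLT1 rose by 0.58 and ESAM fell by 1.04. Over all genes 4.33% rose and 3.58% fell. FLT1 kept its call only without 8 h array 1 (up to 0.137 otherwise). PECAM1, the defining one, read 4.31 and 4.34.

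The largest falls included genes of enzymes and signalling proteins. LRRC19, a leucine-rich repeat protein of kidney and gut epithelium, read 6.54, 7.43 and 7.65 at 0 h and 5.24, 5.10 and 4.90 at 8 h, a difference of -2.13 ± 0.43, or 4.37-fold lower (limma, adjusted p = 0.00782). PLCL1, a catalytically inactive relative of phospholipase C, went from 6.32, 6.39 and 6.40 to 5.17, 4.49 and 4.16, a difference of -1.76 ± 0.19 (limma, adjusted p = 0.000129). Array 1 was the least changed of the 8 h arrays for both genes, and no array of one time reached the other. GDPD2, a phosphodiesterase of glycerol esters, was lower than at both earlier times. It was 1.35 ± 0.15 below 0 h and 0.76 ± 0.15 below 4 h (limma, adjusted p = 0.000237 and 0.0143).

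Among metabolic enzymes, FMO5, a flavin monooxygenase, went from 6.93, 7.22 and 7.51 to 5.93, 5.59 and 5.67, a difference of -1.49 ± 0.20 (limma, adjusted p = 0.000819). HAO2, a peroxisomal oxidase of hydroxy acids, went from 7.77, 8.20 and 8.32 to 7.08, 6.76 and 6.59, a difference of -1.29 ± 0.16 (limma, adjusted p = 0.000462). Neither gene overlapped between the times. PANK1, which starts the synthesis of coenzyme A, differed by -1.11 ± 0.14, and COQ8A, needed for coenzyme Q, by -1.07 ± 0.17. CAMK1D, a calcium-dependent kinase, differed by -1.14 ± 0.12, and NEURL3, a ubiquitin ligase, by -1.28 ± 0.16. DMD, or dystrophin, had 2 probe sets. The brighter fell to 0.414 of its 0 h level (limma, adjusted p = 0.00525), and the dimmer was at 0.705 and not called (limma, adjusted p = 0.104).

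Of 32 measured genes of autophagy and lysosomes, 5 fell (3.58% of all genes did) and none rose, with a median of -0.26, and in 16 the 8 h arrays lay wholly below the 0 h arrays, which was so for 12.9% of all genes. SQSTM1, the receptor that carries cargo into autophagosomes, read 9.60, 9.99 and 9.93 at 0 h and 8.73, 9.28 and 9.08 at 8 h, a difference of -0.81 ± 0.15 (limma, adjusted p = 0.00585). ULK1, the kinase that starts autophagy, differed by -0.61 ± 0.16, MCOLN1, the lysosomal calcium channel, by -0.65 ± 0.17, GABARAPL1, an autophagosome coat protein, by -0.56 ± 0.14, and MITF, a regulator of lysosomal genes, by -0.47 ± 0.11. MITF was above its 4 h level by 0.59 ± 0.11 (limma, adjusted p = 0.00975).

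Of these, SQSTM1 kept its call in all 6 fits without 1 array. MCOLN1 and GABARAPL1 each kept theirs only without 8 h array 1, with adjusted p of up to 0.117 and 0.129, and ULK1 lost it without 0 h array 2 or 3 or 8 h array 1 or 3, at up to 0.123. The number of genes called lower was 2 without 0 h array 1, and 1 without 0 h array 2, 0 h array 3 or 8 h array 3. MITF lost its call in each of these fits.

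Cell junction genes were counted in a pair of lists. None of 12 claudins, the proteins that set the permeability of tight junctions, was called, with a median of -0.03. CLDN8 read 6.43, 6.74 and 6.51 at 0 h and 6.06, 6.31 and 5.90 at 8 h, a difference of -0.47 ± 0.19 (limma, adjusted p = 0.179), and it was above its 4 h level by 0.97 ± 0.19 (limma, adjusted p = 0.0119). Of 19 other junction genes none rose and 3 fell, against 3.58% of all genes falling, and in 6 the 8 h arrays lay wholly below the 0 h arrays, against 12.9% of all genes. Those that fell were MARVELD3 of tight junctions, by 0.54, PKP4 of desmosomes and adherens junctions, by 0.43, and the adhesion protein NECTIN2, by 0.40. MARVELD3 kept its call only without 0 h array 1, PKP4 only without 8 h array 1, and NECTIN2 only without 8 h array 1 or 2, with adjusted p of up to 0.124, 0.118 and 0.116. Of 28 genes of matrix and its receptors 3 rose and 1 fell, against 4.33% and 3.58% of all genes. Among them were the integrins ITGA3, higher by 1.16, ITGB3, higher by 0.67, and ITGB4, lower by 0.43. A dimmer probe set of ITGA3 was higher by 1.15 but not called (limma, adjusted p = 0.0969), and its groups overlapped. ITGB4 kept its call only without 8 h array 2 (up to 0.164 otherwise).

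Genes of quiescence and of stress arrest were compared with 4 h too. Of 20 genes of quiescence and cell cycle inhibition, 7 were higher than at 4 h and none lower, where 2.32% and 1.80% of all genes were. Against 0 h, 1 rose, RBL1, and 1 fell, YPEL5 at -0.61, where 4.33% and 3.58% of all genes did. SESN1, a stress-induced brake on mTORC1, was 1.30 ± 0.28 above its 4 h level (limma, adjusted p = 0.0179) and differed from 0 h by -0.05 ± 0.28. PDK4, a kinase that spares glucose, was 1.35 ± 0.24 above its 4 h level (limma, adjusted p = 0.00781) and differed from 0 h by 0.20 ± 0.24.

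No probe set was called between 8 and 12 h (0.00% of those tested, limma). The smallest adjusted p was 0.185, and 1608 probe sets had an unadjusted p under 0.05. The same fit without dim probe sets called 3. The values at 12 h are given here beside those at 8 h without a claim that they are equal. The 12 h difference from 0 h was 3.16 for DHRS3, 2.26 for CYP26A1, 1.16 for DTL, 1.19 for POLE2, 2.37 for TAGLN and 0.89 for EMP1. The median of the replication list was 0.67, 0.49 and 0.62 on the 12 h arrays, and that of the ribosome biogenesis list was 0.22, 0.30 and 0.46.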

How the data were processed

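Total RNA was labelled with biotin and hybridized to Affymetrix porcine arrays, per the labels' protocols. Each deposited value is the log2 signal of 1 probe set on 1 array. The submitters' processing notes name Transcriptome Analysis Console 2.0.0.9. The summarization, normalization and genome build are not given in the sources used here, and values were used as deposited, without a filter. Array medians at 0 and 8 h ran from 5.589 to 5.648. Precision is limited by having 3 arrays per time: differences had a median SE of 0.149.

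A model with 1 mean per time was fitted to all 18 arrays with limma 3.58.1 in R 4.3.3 (12 residual and 3.34 prior degrees of freedom). Tests were two-sided, adjusted by Benjamini-Hochberg over 27558 probe sets and called under 0.05. Of these probe sets 13323 carried 1 gene symbol, 357 several and 13878 none, in GEO's platform annotation, with 7 symbols updated from RefSeq. Each of 12361 genes was read through its brightest probe set over the 18 arrays. For 1239 probe sets the profile was identical to that of another.

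Members of the 40 gene lists and the tests were chosen with earlier results of these data known, and lists are described by counts and medians without a test. Named genes were the 15 largest rises and 15 largest falls with non-overlapping times, up to 4 called members of each list, retinoid and claudin genes whatever their values, and the 8 largest rises and falls from 4 h (5 from 8 to 12 h). Other genes named were picked after their values were seen: members of the lists beyond 4, the markers, FOS, EGR1, CDK1, TOP2A, SLC5A1 and CUBN. Some retinoid and junction genes were not analysed here, RARG, CYP26B1 and OCLN among them, and neither were promoter sequences. Arrays with the same number were not treated as pairs. The procedure was tested on simulated data.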

Additional observations from a re-analysis of the deposited data

Results flagged for a closer look

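Each of the 29 genes in this section was named above or by the same rule, and its 8 h level differed from its 4 h level in the direct test (limma, adjusted p under 0.05). No untreated arrays of those times were used, so exposure and further culture cannot be told apart here either. A fit of the 6 arrays of those times alone called none of the probe sets.

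Genes of replication and chromosome handling were higher at 8 h than at 4 h. The log2 differences were 1.84 for MMS22L, 1.74 for DTL, 1.54 for POLE2, 1.51 for MTBP, 1.42 for ORC1, 1.38 for DDIAS, 1.19 for DSCC1, 1.18 for CDC6 and 0.49 for RBL1. MMS22L and DDIAS were not called against 0 h.

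Other genes higher than at 4 h were PDK4 at 1.35, SESN1 at 1.30, CLDN8 at 0.97, RDH11 at 0.70, DHRS3 at 0.65, HOXA5 at 0.55 and MRPS5 at 0.48. DHRS3 and MRPS5 were also called higher than at 0 h. HOXA5 was called lower than at 0 h, and the remaining 4 were not called against it.

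Signalling genes were lower than at 4 h: IL4R at -1.72, PLAU at -1.64, DUSP10 at -1.62, DUSP5 at -1.55, IL1R1 at -1.37, SDC4 at -1.26, CYR61 at -1.24, PLAT at -1.19, SPRED1 at -0.77 and LEF1 at -0.53. PLAT, SPRED1 and LEF1 were still called higher than at 0 h, LEF1 with a call kept only without 0 h array 3 (limma, adjusted p of up to 0.166 otherwise). DDIT3 at -0.85 and GDPD2 at -0.76 were lower than at both earlier times, and SLC1A4 at -0.62 stayed above 0 h.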

How the results depend on the processing

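Of 138 named genes 114 were called at 8 h, and 63 of these calls held in all 6 fits that left out 1 array. Such fits gave 371 to 875 probe sets higher and 332 to 950 lower (genes 234 to 531 and 180 to 496), from 4 h 76 to 1365 higher and 124 to 878 lower, and from 8 to 12 h 0 to 0. List counts ran from 2 to 5 for proximal tubule genes lower, 9 to 20 for ribosome biogenesis, 9 to 20 for translation, 4 to 12 for replication and 1 to 5 for autophagy lower. With the 6 compared arrays alone, 131 probe sets were higher and 98 lower (genes 86 and 54), and 0 and 0 against 4 h. List members called were 2, 3, 0, 3 and 0 in the same order. Such fits have fewer degrees of freedom, and the part of this in the lower counts was not tested. A fit with the replicate block gave 1646 and 1545 (genes 965 and 819), 1288 and 890 against 4 h, 8 tubule, 25 biogenesis and 12 autophagy genes. Deviations of same-numbered arrays at 0 and 8 h correlated at 0.375, 0.095 and 0.212, and not every array correlated best with its own number. A difference of at least 1 left 116 and 59 (genes 72 and 27), 61 and 47 against 4 h, and 0, 2, 0, 7 and 0 list members. Without dim probe sets, 855 and 629 were called against 4 h and 3 between 8 and 12 h. Arrays numbered 2 or 3 alone gave 1032 and 809 against 4 h. Among named genes, signs turned only for some not called. Without 1 array, SESN1 ran from -0.22 to 0.12, RDH10 from -0.25 to 0.05, CRABP2 from -0.24 to 0.01, TGM2 from -0.03 to 0.13 and DUSP5 from -0.25 to 0.04, and RDH11 was 0.08 with arrays numbered 2 or 3 alone. The cause of these changes between settings was not tested.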

Other observations

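A further set of lower genes encodes parts of cilia, the hair-like organelles built on a core of microtubules. DNAH6, a motor of the axoneme, differed by -1.17 ± 0.20 at 8 h (limma, adjusted p = 0.00362), IQUB by -0.93 ± 0.19, MORN5 by -0.89 ± 0.15, WDR63 by -0.88 ± 0.16 and IFT122, which carries cargo back along the cilium, by -0.80 ± 0.13. BBS1 and BBS9, of the complex that sorts ciliary membrane proteins, differed by -0.54 ± 0.09 and -0.69 ± 0.19, and PKHD1, the gene of recessive polycystic kidney disease, by -0.74 ± 0.13. Among 50 measured genes of cilia 14 were called lower and none higher, against 3.58% and 4.33% of all genes, with a median of -0.25. This list was assembled after the genes that fell had been seen and includes them, so its count carries no weight as evidence and was not tested. None of the 50 was called between 4 and 8 h (limma), against 4.13% of all genes.

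Enzymes that break down small molecules, many of them in peroxisomes, formed another such set. DAO, which oxidizes D-amino acids, differed by -0.84 ± 0.12 (limma, adjusted p = 0.001), ACOX2 of branched fatty acid oxidation by -0.78 ± 0.11, BBOX1 of carnitine synthesis by -0.99 ± 0.17, PKLR, a pyruvate kinase, by -0.94 ± 0.20, HOGA1 of glyoxylate metabolism by -0.90 ± 0.19 and FAH of tyrosine breakdown by -0.70 ± 0.10. Of 41 measured, 20 were called lower and none higher, against 3.58% and 4.33% of all genes, with a median of -0.44. This list was put together in the same way, after the values were seen, and the same limit applies.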
